A study of Mus musculus with 18 samples.

Results

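The genes described here encode the proteins that carry a Toll-like receptor (TLR) signal away from the receptor's cytoplasmic TIR domain. They were chosen by name: the adaptors Myd88 and Tirap, the kinases Irak4, Irak1 and Irak2, the inhibitors Irak3 and Tollip, and the ubiquitin ligases Traf6, Traf3 and Peli1. All 10 symbols were found among the 23420 genes measured, and all 10 passed the filter on low values in both arms of the study. When TLR7 or TLR9 binds nucleic acid in an endosome, its TIR domain recruits MyD88, whose death domain assembles with those of IRAK4 and then IRAK1 or IRAK2 into the Myddosome. IRAK1 and IRAK2 pass the signal to TRAF6, which leads to TAK1, the IKK complex and NF-κB, whereas TRAF3 serves the branch that leads to type I interferon. IRAK-M (the product of Irak3) and Tollip restrain the IRAK kinases, and Pellino-1 attaches ubiquitin to them.

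The study asked whether TLR7 and TLR9 differ in their effects because their TIR domains signal differently, and it used bulk RNA-seq of splenic B cells of MRL/lpr mice. This strain carries the Fas lpr mutation and develops lupus, so that all groups shared it. B cells were enriched with beads from mice of 5 to 7 weeks and cultured for 4 h with a TLR agonist or without stimulation, giving 18 libraries, 3 for each of 6 groups. The CpG arm used female mice, all Tlr7-/-. They were either Tlr9+/- (Tlr9het hereafter) or Tlr997, in which the TIR domain of TLR9 was replaced by that of TLR7 in the Tlr9 locus, and the stimulus was the TLR9 agonist CpG (ODN 1826) at 10 µg/ml. The study describes the Tlr997 mice as homozygous, and chose Tlr9+/- controls to match their amount of TLR9 protein. One label, the treatment protocol, writes Tlr9-/- for the control of this arm. The sample titles, which give Tlr9het, were followed here. The CL097 arm used male mice labelled Tlr9-/- Tlr779, with a TLR7 that carries the TIR domain of TLR9 in the Tlr7 locus, and the stimulus was the TLR7 agonist CL097 at 5 µg/ml. Each allele was carried by the whole animal, not by B cells alone. Because receptor, sex, genotype and agonist all changed between the arms, they cannot be told apart, and values of the arms are set side by side without a test. Each group held 3 samples, and no label states whether unstimulated and stimulated samples of a genotype came from the same mice.

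Upstream sequences are shown for 4 members whose changes frame the results: Myd88 and Traf6, which were higher after CpG, and Irak2 and Irak3, which were lower after each agonist. Each is the 250 bases before a RefSeq transcript start (mouse build GRCm38.p6), read 5′ to 3′ on the gene's strand, with capitals where a searched motif matched.
Myd88 (chr9:119340019-119340268, minus strand): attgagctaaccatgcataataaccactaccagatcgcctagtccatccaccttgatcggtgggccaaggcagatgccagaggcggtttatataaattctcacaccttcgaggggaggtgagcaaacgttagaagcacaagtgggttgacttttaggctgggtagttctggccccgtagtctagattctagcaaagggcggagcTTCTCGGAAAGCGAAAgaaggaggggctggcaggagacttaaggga
Traf6 (chr2:101678170-101678419, plus strand): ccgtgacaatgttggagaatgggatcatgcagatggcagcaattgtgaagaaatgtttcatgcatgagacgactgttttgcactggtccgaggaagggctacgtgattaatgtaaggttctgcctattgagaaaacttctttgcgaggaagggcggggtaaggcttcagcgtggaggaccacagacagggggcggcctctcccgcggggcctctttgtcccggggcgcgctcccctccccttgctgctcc
Irak2 (chr6:113638217-113638466, plus strand): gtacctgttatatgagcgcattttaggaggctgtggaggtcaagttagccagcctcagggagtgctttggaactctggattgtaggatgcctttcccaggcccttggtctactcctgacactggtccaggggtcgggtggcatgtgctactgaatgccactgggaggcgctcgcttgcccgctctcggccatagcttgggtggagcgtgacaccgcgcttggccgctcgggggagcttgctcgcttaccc
Irak3 (chr10:120202131-120202380, minus strand, the outer of its RefSeq starts): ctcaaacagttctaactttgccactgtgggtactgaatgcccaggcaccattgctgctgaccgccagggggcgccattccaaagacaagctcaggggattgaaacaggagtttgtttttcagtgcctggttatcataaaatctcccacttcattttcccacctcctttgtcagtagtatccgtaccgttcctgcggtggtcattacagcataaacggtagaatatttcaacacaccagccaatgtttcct
The capitals in the Myd88 sequence cover a core of the interferon-stimulated response element (GAAANNGAAA), 40 to 31 bases before the start, and a STAT site (TTCNNNGAA), 46 to 38 bases before it, which overlap. On both strands of the same window, the first motif was found in 2.98% of 32851 RefSeq promoters and the second in 7.02%. The sequences of Traf6, Irak2 and Irak3 held neither motif, no match to the NF-κB consensus (7.25% of promoters) and no AP-1 site (TGANTCA, 6.75%). Of the other members, Irak1 held the NF-κB match GGGACGCCCC 18 to 9 bases before its outer start and Traf3 held GGGGATTTCC in the last 10 bases before its start, whereas Tirap, Irak4, Tollip and Peli1 held no match. These matches describe letters only.

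Per the deposited values, each library was a set of log2 CPM, reads per gene scaled by library size and then quantile normalized across libraries by the authors. Every value below is on that scale unless stated otherwise. Library depth is unknown, since the values had been normalised and no counts were used here. As a check of the labels, Tlr7 averaged 3.15 and 4.96 in unstimulated Tlr9het and Tlr997 B cells, both labelled Tlr7-/-, and 6.88 in Tlr779, so that the knockout libraries were lower but not at the floor. Tlr7 was called higher in Tlr997 than in Tlr9het, by 1.81 without CpG and 1.13 with it (limma, adjusted p = 0.000591 and 0.00204). In the CL097 arm, labelled Tlr9-/-, Tlr9 averaged 7.24 (7.17 to 7.33) in unstimulated and 7.19 (6.93 to 7.47) in CL097-treated Tlr779 libraries. It averaged 7.37 in unstimulated Tlr9het and 7.04 in unstimulated Tlr997. The total of this gene therefore showed no loss in the Tlr779 libraries. By design, the Tlr779 allele holds the TIR sequence of Tlr9, and the Tlr997 allele holds that of Tlr7. Whether reads from these inserts were counted under Tlr9 and Tlr7 was not tested. Which part of Tlr9 the Tlr9-/- allele lacks is not given in the sources used here. A total per gene shows neither that nor which TIR domain a receptor carried. With CpG, Tlr9 was lower in Tlr997 than in Tlr9het, with means of 7.31 and 8.01 and a difference of -0.70 (limma, adjusted p = 0.000775). The part of these receptor levels in the members' values was not tested. All 6 B cell markers had means above 0 log2 CPM in every group, with sums per library of 5523 to 7338 CPM without and 1653 to 3160 CPM with an agonist. The 8 macrophage and monocyte markers were also above 0, with sums between 101 and 475 CPM. Sums over the markers found were 16.6 to 120 CPM for neutrophils (4 of 5 found), 2.90 to 25.7 CPM for T cells (5 of 6), 3.88 to 11.7 CPM for NK cells, 52.3 to 165 CPM for dendritic cells and 108 to 3863 CPM for erythroid cells, in which Hba-a1 was near the floor.

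A gene was called when limma's moderated test, adjusted by Benjamini-Hochberg over all genes tested, gave a p under 0.05 and the log2 fold change was over 0.5 in size. After CpG, Tlr9het B cells had 5 of the 10 members called, Myd88 higher and Irak1, Irak2, Irak3 and Peli1 lower. Over all 11494 genes tested in this comparison 57.8% were called, 29.7% higher and 28.2% lower. Tlr997 B cells had 3 members called after CpG, Irak2, Irak3 and Peli1, all lower, where 55.6% of genes were called, 29.6% higher and 26.0% lower. Tlr779 B cells had 2 called after CL097, Irak2 and Irak3, both lower, where 46.3% of 11082 genes were called, 22.7% higher and 23.6% lower. The share of members called was therefore no larger than that of all genes in any of the responses. The median log2 fold change of the members was -0.15, -0.12 and -0.12 in the same order, beside 0.04, 0.07 and -0.02 over all genes tested.

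**Figure D1:**
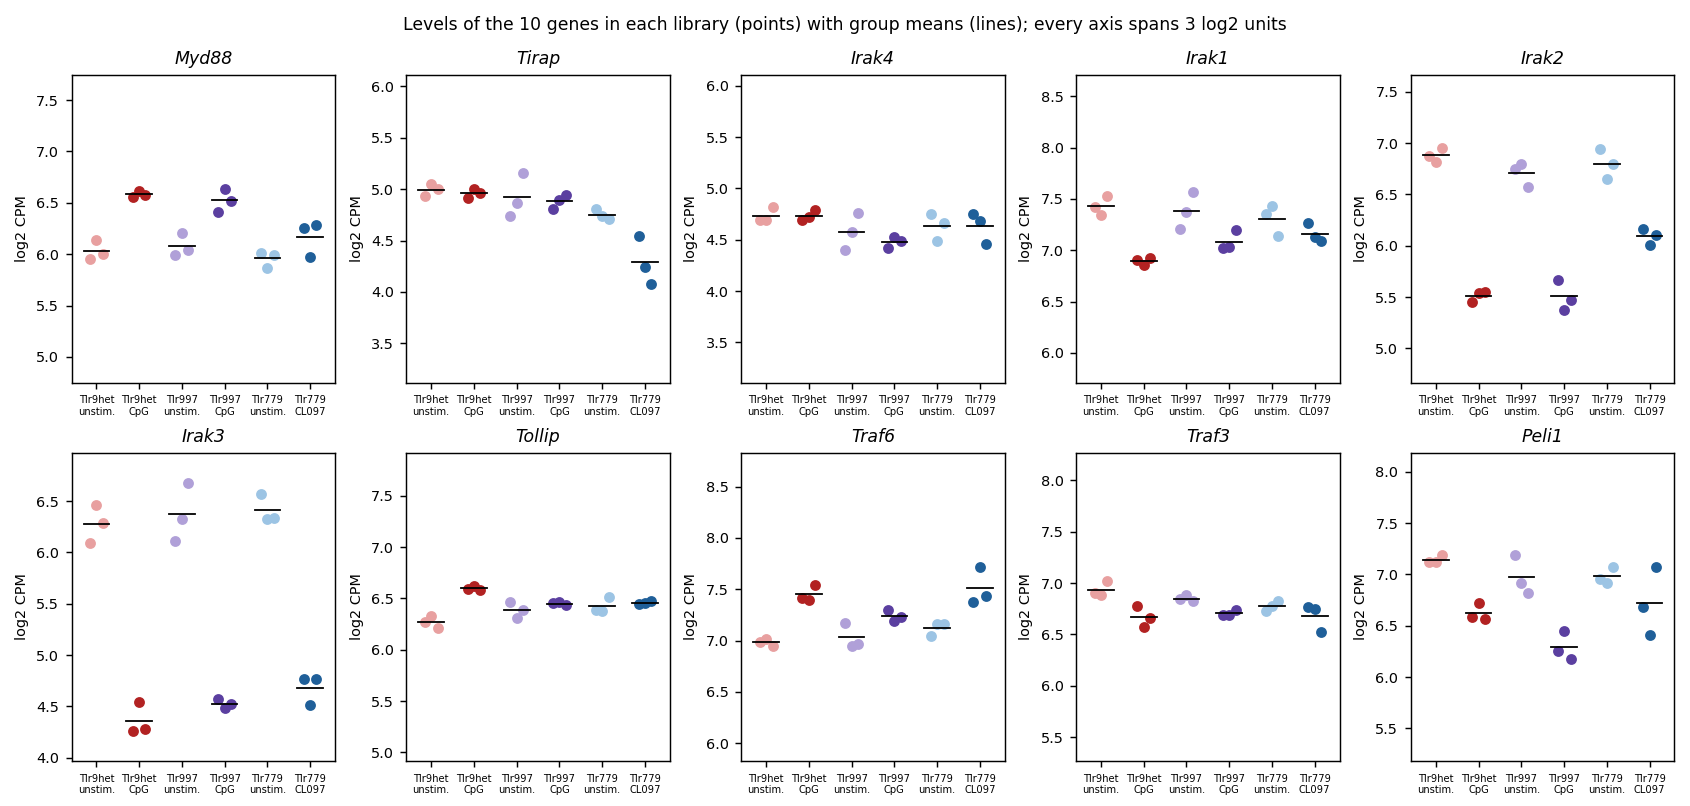
Level of each of the 10 genes in log2 CPM (vertical axis, 3 units in every panel) in the 18 libraries (points) of 6 groups (horizontal axis), with the mean of 3 libraries as a line. Irak3 and Irak2 sat lower in every stimulated library than in every unstimulated library, whereas Irak4 overlapped between stimulated and unstimulated libraries in each genotype.

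Irak3, the inhibitor of the family, had the largest fold change of the 10 genes in each response. Its gene lies at chr10:120141648-120202130. In unstimulated Tlr9het B cells the libraries were at 6.09, 6.46 and 6.28, and with CpG they were at 4.26, 4.55 and 4.28. In Tlr997 B cells the values were 6.11, 6.33 and 6.68 without CpG and 4.57, 4.48 and 4.52 with it. Tlr779 libraries were at 6.57, 6.33 and 6.34 without CL097 and at 4.76, 4.52 and 4.77 with it. No stimulated library reached an unstimulated library. Irak3 was thus 3.77-fold lower with CpG in Tlr9het, a log2 fold change of -1.92 ± 0.13 (SE, adjusted p = 2.19e-08 by limma). It was 3.59-fold lower in Tlr997, at -1.84 ± 0.13 (limma, adjusted p = 3.87e-08), and 3.32-fold lower with CL097 in Tlr779, at -1.73 ± 0.11 (limma, adjusted p = 8.73e-06). In bulk RNA, fewer cells that express a gene and less RNA per cell cannot be told apart.

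Irak3 is well known from monocytes and macrophages, and the summed level of the 8 macrophage and monocyte markers was also lower after stimulation, by a log2 difference of -0.57 in Tlr9het, -0.63 in Tlr997 and -1.03 in Tlr779. Its part in the Irak3 result, and in that of Irak2 below, was not tested. The sums ranged from 215 to 286 CPM without and 149 to 184 CPM with CpG in Tlr9het, from 145 to 372 CPM and 106 to 225 CPM in Tlr997, and from 196 to 475 CPM without and 101 to 212 CPM with CL097 in Tlr779. The sum did not stand for each marker. C1qa and C1qb had means of 3.77 and 3.74 without and 3.79 and 3.78 with CpG in Tlr9het. In Tlr779 these were 3.18 and 3.23 without and 3.20 and 3.50 with CL097. In Tlr997 both were lower with CpG, with means of 3.83 and 4.27 without and 3.77 and 3.82 with it. The other markers of the list had lower means after the agonist in each genotype. No defining marker of the list was at 0.

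Irak2, the kinase that takes part in later phases of Myddosome signaling, fell after each agonist as well (chr6:113638467-113695026). The unstimulated Tlr9het libraries were at 6.87, 6.82 and 6.96, against 5.46, 5.54 and 5.55 with CpG. Tlr997 libraries went from 6.75, 6.80 and 6.57 to 5.67, 5.38 and 5.47. In Tlr779 they went from 6.94, 6.65 and 6.80 to 6.17, 6.01 and 6.11 with CL097. The groups did not overlap in any genotype. Irak2 fell by 1.37 ± 0.08 (SE) in Tlr9het (limma, adjusted p = 4.75e-09), by 1.199 ± 0.08 in Tlr997 (adjusted p = 2.14e-08) and by 0.70 ± 0.09 in Tlr779 (adjusted p = 0.000285). These were 2.58-fold, 2.30-fold and 1.63-fold differences, and the CL097 libraries of Tlr779 all lay above the CpG libraries of the other arm, a comparison for which the design allows no test.

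Irak1 and Irak4, the kinases at the centre of the Myddosome, moved less. Irak1 lies on the X chromosome (chrX:74013914-74023921), 93.3 Mb from Tlr7. Its Tlr9het libraries were at 7.42, 7.34 and 7.53 without CpG and at 6.91, 6.85 and 6.93 with it. The groups were apart, with a fall of 0.53 ± 0.09 (SE, limma, adjusted p = 7.57e-05) that only just passed the fold threshold. Without replicate 3 of the unstimulated Tlr9het libraries the log2 fold change was -0.48 and the call was lost. In Tlr997 B cells the values were 7.21, 7.37 and 7.57 without CpG and 7.02, 7.03 and 7.201 with it, a log2 fold change of -0.30 ± 0.09 with an adjusted p of 0.00627 in limma that did not pass the fold threshold. Tlr779 gave -0.15 ± 0.09 with CL097 (limma, adjusted p = 0.198), where the groups overlapped.

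Irak4 (chr15:94543613-94568317), the first kinase recruited by MyD88, was close to its unstimulated level in all 3 genotypes. Its 18 libraries spanned 4.40 to 4.82. The 95% intervals of its log2 fold change were -0.21 to 0.21 in Tlr9het, -0.31 to 0.11 in Tlr997 and -0.28 to 0.27 in Tlr779, so that a change over 0.5 in size lay outside each of them.

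**Figure D2:**
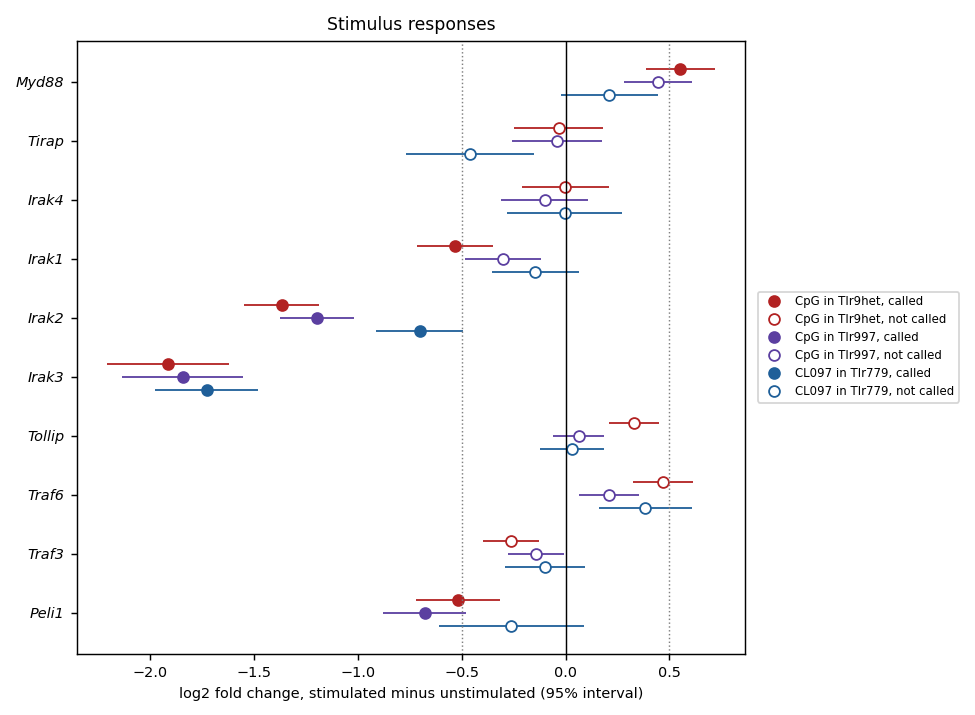
Stimulus response of each gene as a log2 fold change (horizontal axis) with its 95% interval from limma, for CpG in Tlr9het (red), CpG in Tlr997 (purple) and CL097 in Tlr779 (blue). Filled points were called, dotted lines mark the fold threshold of 0.5, and the points of Irak3 lie between -1.92 and -1.73 in the 3 genotypes.

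Myd88, the adaptor shared by TLR7 and TLR9 (chr9:119335934-119340018, 13.1 Mb from the Tlr9 locus that was altered in Tlr997), was the only member called higher in any response. The Tlr9het libraries were at 5.96, 6.14 and 6.0 without CpG and at 6.56, 6.62 and 6.58 with it. Tlr997 libraries went from 5.99, 6.21 and 6.04 to 6.42, 6.63 and 6.52. Each CpG library lay above each unstimulated library of its genotype. Myd88 rose by 0.55 ± 0.08 (SE) in Tlr9het (limma, adjusted p = 1.81e-05). In Tlr997 the log2 fold change was 0.44 ± 0.08 with an adjusted p of 0.000148 in limma, below the fold threshold, and it became 0.51 and was called when replicate 2 of the unstimulated libraries was left out. In Tlr779 the libraries were at 6.01, 5.87 and 5.996 without CL097 and at 6.26, 5.97 and 6.28 with it, and these overlapped. There the log2 fold change was 0.21, with a 95% interval of -0.02 to 0.44 (limma, adjusted p = 0.102). With the replicate block the limma adjusted p was 0.043.

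Tirap, the bridging adaptor that brings MyD88 to receptors such as TLR4 (chr9:35184391-35200291), differed between unstimulated and CpG-treated B cells by -0.03 in Tlr9het, with a 95% interval of -0.25 to 0.18, and by -0.04 in Tlr997, with an interval of -0.26 to 0.18. In Tlr779 B cells its libraries were at 4.80, 4.74 and 4.71 without CL097 and at 4.55, 4.25 and 4.08 with it. The CL097 libraries were the lowest of all 18 for this gene. The response, -0.46 ± 0.13 (SE) with a limma adjusted p of 0.0169, stayed under the fold threshold, and was -0.59 and called without replicate 1 of the CL097 libraries.

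Traf6, the ligase that links the IRAK kinases to TAK1 (chr2:101678420-101701668), was higher in every stimulated library than in every unstimulated library of its genotype, yet was never called. Its values were 6.99, 7.02 and 6.95 without CpG and 7.42, 7.39 and 7.54 with it in Tlr9het. They were 7.18, 6.95 and 6.97 without CpG and 7.296, 7.19 and 7.23 with it in Tlr997. In Tlr779 they were 7.04, 7.17 and 7.16 without CL097 and 7.38, 7.71 and 7.44 with it. The log2 fold changes were 0.47 ± 0.07, 0.21 ± 0.07 and 0.38 ± 0.10 (SE), with limma adjusted p of 2.7e-05, 0.0131 and 0.00907, and each was under the fold threshold.

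Traf3, the ligase of the interferon branch that also restrains noncanonical NF-κB signaling in B cells (chr12:111166321-111267155), went the other way by small amounts. Its log2 fold change was -0.26 ± 0.06 (SE, limma, adjusted p = 0.00175) in Tlr9het, where the libraries went from 6.90, 6.88 and 7.02 to 6.78, 6.57 and 6.66. It was -0.14 ± 0.06 (adjusted p = 0.0546) in Tlr997 and -0.10 ± 0.08 (adjusted p = 0.339) in Tlr779. None of these passed the fold threshold.

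Peli1 encodes Pellino-1 (chr11:21091283-21150327). In Tlr9het its libraries were at 7.13, 7.12 and 7.19 without CpG and at 6.59, 6.72 and 6.57 with it. In Tlr997 they were at 7.19, 6.92 and 6.82 without CpG and at 6.25, 6.45 and 6.18 with it. CpG libraries were lower throughout in both genotypes. Peli1 fell by 0.52 ± 0.09 (SE) in Tlr9het (limma, adjusted p = 0.000213) and by 0.68 ± 0.09 in Tlr997 (adjusted p = 1.93e-05). The first of these calls lay at the fold threshold: it was lost with library weights, at -0.49, and without replicate 3 of the unstimulated or replicate 1 or 3 of the CpG libraries, at -0.50, -0.50 and -0.49. With CL097, the Tlr779 libraries spread from 6.41 to 7.07 and overlapped the unstimulated libraries at 6.96, 6.92 and 7.07. The log2 fold change was -0.26 with a 95% interval of -0.61 to 0.09.

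Tollip, an inhibitor that binds IRAK1 (chr7:141881580-141902461), was at 6.27, 6.33 and 6.21 in unstimulated Tlr9het B cells and at 6.60, 6.62 and 6.58 with CpG. The difference, 0.33 ± 0.06 (SE) with a limma adjusted p of 0.000128, was under the fold threshold. In Tlr997 and Tlr779 the corresponding values were 0.06 ± 0.06 and 0.03 ± 0.07, with 95% intervals of -0.06 to 0.18 and -0.12 to 0.19, and the groups overlapped. Of the inhibitors, Irak3 was thus lower after stimulation and Tollip was not.

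Stimulated and unstimulated libraries did not overlap for 8 of 10 members in Tlr9het, for 7 of 10 in Tlr997 and for 4 of 10 in Tlr779, beside 80.1%, 71.2% and 67.8% of all genes tested. An adjusted p under 0.05 at any fold was reached by 8, 6 and 4 members, beside 72.7%, 71.1% and 61.6% of all genes.

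Levels of different genes were compared after dividing by the length of the longest GENCODE coding transcript, as log2 CPM per kb. Irak1 was the highest of the 10 genes in each unstimulated group, at 5.49 ± 0.09 (SD, n = 3) in Tlr9het, 5.45 ± 0.18 in Tlr997 and 5.37 ± 0.15 in Tlr779. In Tlr779 its libraries overlapped those of the next gene, Irak2, at 5.12 ± 0.15. The order then ran through Irak2, Peli1 and Myd88, in an order that varied and with neighbours that overlapped in each genotype, to Irak3 in the fifth place, at 4.65 ± 0.19 in Tlr9het, 4.74 ± 0.29 in Tlr997 and 4.78 ± 0.14 in Tlr779. Tollip and Traf6 followed and overlapped with each other, then Traf3, Irak4 and Tirap. Tirap was the lowest, with 2.80 ± 0.06 in Tlr9het. With CpG, Myd88 stood first at 5.61 ± 0.03 in Tlr9het and 5.55 ± 0.11 in Tlr997, above Irak1 at 4.96 ± 0.04 and 5.14 ± 0.10 with no overlap between the libraries. With CL097, Irak1 at 5.22 ± 0.09 and Myd88 at 5.20 ± 0.17 overlapped. Irak3 dropped to 2.73 ± 0.16 in Tlr9het with CpG, which overlapped Tirap, to 2.89 ± 0.05 in Tlr997 with CpG, and to 3.05 ± 0.14 in Tlr779 with CL097, which overlapped Irak4.

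**Figure D3:**
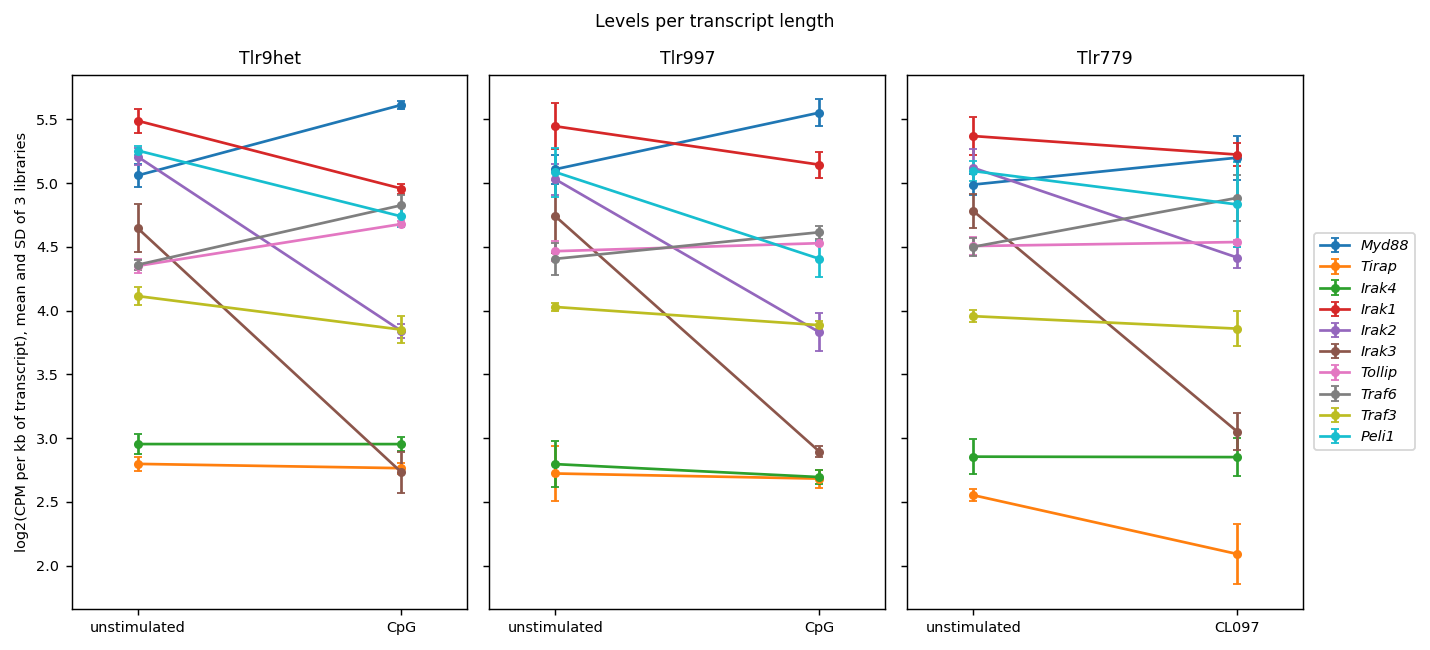
Level per transcript length (vertical axis, log2 CPM per kb, mean and SD of 3 libraries) of each gene without and with the agonist (horizontal axis) in the 3 genotypes. Irak3 crosses from 4.65 to 2.73 in Tlr9het and ends beside Irak4 and Tirap, while Myd88 ends highest in both CpG groups.

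A comparison of Tlr997 with Tlr9het asked whether the TIR domain of TLR7 in place of that of TLR9 altered these genes. In limma, 0 of the 10 members were called in unstimulated cells, with CpG, or in the difference of the CpG responses (the interaction). The background was low too: 0.0174% of genes were called in unstimulated cells, 2.72% with CpG and 1.54% in the difference of the responses. At an unadjusted p under 0.05 there were 0, 5 and 2 members, beside 10.8%, 19.0% and 16.0% of genes. Without stimulus, the libraries did not overlap for 2 of 10 members, Irak2 and Traf3, beside 13.6% of all genes, and the differences were -0.18 (interval -0.36 to 0.001) and -0.09 (interval -0.22 to 0.05).

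With CpG, the libraries of the 2 genotypes did not overlap for 5 of 10 members, Irak4, Irak1, Tollip, Traf6 and Peli1, beside 30.0% of all genes tested. Peli1 was lower in Tlr997, at 6.25, 6.45 and 6.18 against 6.59, 6.72 and 6.57, with a difference of -0.33 and a 95% interval of -0.53 to -0.13 (limma, adjusted p = 0.0571). Traf6 was at 7.296, 7.19 and 7.23 in Tlr997 against 7.42, 7.39 and 7.54 in Tlr9het, a difference of -0.21 (interval -0.36 to -0.07, limma adjusted p = 0.0915). Tollip differed by -0.15 (interval -0.27 to -0.03), Irak4 by -0.26 (interval -0.47 to -0.05) and Irak1 by 0.19 (interval 0.003 to 0.37), with limma adjusted p of 0.158, 0.164 and 0.254. None of these differences passed the test. For Myd88, the interval was -0.23 to 0.10, and for Irak3 it was -0.13 to 0.46, so that a difference over 0.5 in size lay outside both.

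In the difference of the CpG responses, Tollip had the lowest adjusted p of the 10 genes: its response was 0.27 smaller in Tlr997 (interval of the difference -0.44 to -0.09, limma adjusted p = 0.113). The Traf6 response differed by -0.26 (interval -0.46 to -0.05, adjusted p = 0.196) and that of Irak1 by 0.23 (interval -0.03 to 0.49, adjusted p = 0.373). For Irak2 and Irak3, the genes with the largest responses, the difference was 0.17 (interval -0.08 to 0.42) and 0.07 (interval -0.34 to 0.48). Members called in one genotype's CpG response and not in the other, Myd88 and Irak1, were thus not shown to differ between the genotypes.

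**Figure D4:**
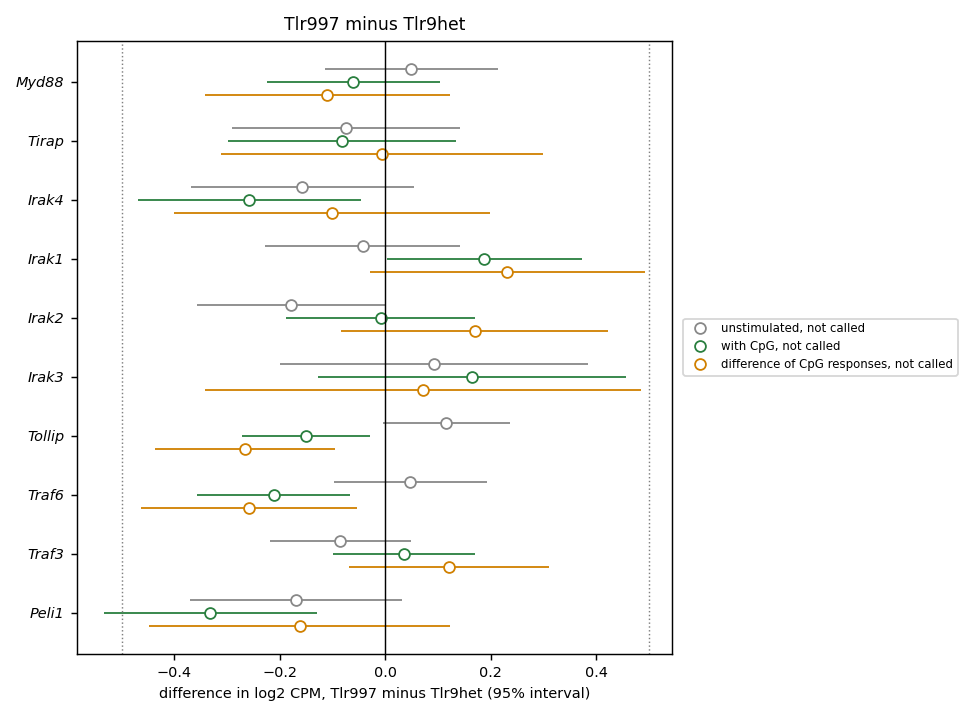
Difference between Tlr997 and Tlr9het for each gene (horizontal axis, log2 scale, with the 95% interval from limma) without stimulus (grey), with CpG (green) and in the CpG response (orange). All points are open because 0 of 10 genes were called, and the point farthest from 0 is Peli1 with CpG at -0.33.

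The wider pathway was read from 4 lists, with values in the order CpG in Tlr9het, CpG in Tlr997 and CL097 in Tlr779. Over all genes tested, 29.7%, 29.6% and 22.7% were called higher and 28.2%, 26.0% and 23.6% lower. The median log2 fold changes over all genes tested were 0.04, 0.07 and -0.02. Of the other adaptors and IL-1 receptor family genes, 9 of 10 were tested, since Sarm1 did not pass the filter. With CpG, 3 rose and 2 fell in Tlr9het, and 3 rose and 1 fell in Tlr997, and with CL097 6 rose and 1 fell in Tlr779. The median log2 fold changes were 0.25, 0.18 and 0.78. Il18rap, a subunit of the IL-18 receptor, rose the most, by 2.53, 2.39 and 2.77 (SE 0.27, 0.27 and 0.29, limma adjusted p between 1.58e-06 and 9.41e-05). Its unstimulated level was low, with means of 0.95, 1.09 and 0.32. Sigirr, an orphan receptor of this family that restrains IL-1 receptor and TLR signaling, fell by 3.20, 2.66 and 1.58 (SE 0.19, 0.19 and 0.16, adjusted p between 4.3e-09 and 6.88e-05). Both Sigirr and Irak3 encode inhibitors of the pathway and both were lower after each agonist.

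Of the TRAF and Pellino paralogs, 5 of 7 were tested, and in each genotype 2 rose, Traf1 and Traf4, and 1 fell, Traf5. The paralogs without a test were Peli2 and Peli3. Median log2 fold changes of the 5 tested were 0.41, 0.27 and 0.33. Traf1, a well-known NF-κB target gene, rose by 2.85 ± 0.13 (SE), 2.66 ± 0.13 and 2.45 ± 0.19 in Tlr9het, Tlr997 and Tlr779. Traf4 rose by 2.24 ± 0.10, 1.453 ± 0.10 and 2.79 ± 0.14, whereas Traf5 was lower, at -1.72 ± 0.08, -1.53 ± 0.08 and -1.09 ± 0.17. Limma adjusted p for these lay between 1.86e-10 and 0.000797. These changes were larger than those of the member genes Traf6 and Traf3, which were not called.

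All 15 genes of the TAK1, IKK and LUBAC list were tested. With CpG, 3 rose and 4 fell in Tlr9het, and 2 rose and 4 fell in Tlr997, and with CL097 2 rose and 2 fell. The median log2 fold changes were 0.03, 0.03 and 0.14. Ikbke, an IKK-related kinase, rose by 1.87, 1.93 and 2.04 (SE 0.21, 0.21 and 0.27), and Sharpin, a subunit of the LUBAC ubiquitin ligase, fell by 1.11, 1.10 and 0.96 (SE 0.16, 0.16 and 0.10). Limma adjusted p for both were between 2e-06 and 0.000336. Map3k7, which encodes TAK1 itself, was at 0.03, -0.01 and 0.08 and was not called.

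Among 10 regulators of TRAF6, TRAF3 and the IRAK kinases, 2 rose and 3 fell with CpG in Tlr9het, 2 rose and 2 fell in Tlr997, and 3 rose and 2 fell with CL097. Their median log2 fold changes were -0.35, -0.02 and -0.01. Tnfaip3, which encodes the inhibitor A20, rose by 2.32 ± 0.06 (SE), 1.71 ± 0.06 and 1.58 ± 0.08. Tifa, a partner of TRAF6, fell the most with CpG, at -3.06 ± 0.23 and -3.17 ± 0.23, and fell by 0.88 ± 0.23 with CL097. Cyld, a deubiquitinase that acts on TRAF6, had the lowest log2 fold change with CL097, at -1.28 ± 0.09. Limma adjusted p of these were between 2.53e-12 and 0.0118. Among the genes named here, negative regulators of the pathway were therefore found in both directions, with Tnfaip3 higher and Irak3, Sigirr and Cyld lower. Of this list, Zc3h12a also rose, by 0.88 in Tlr9het and 0.94 in Tlr997 with CpG, and by 1.22 in Tlr779 with CL097. Not all called genes of the list were named, so that the names give no count of either direction.

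Of all list genes, 3 differed between Tlr997 and Tlr9het. Traf4 was at 7.15 ± 0.07 (SD, n = 3) in Tlr997 with CpG and at 7.71 ± 0.10 in Tlr9het, which is lower by a log2 value of -0.56 (SE 0.10, adjusted p = 0.00466 in limma), and its CpG response was smaller by 0.79 (SE 0.14, adjusted p = 0.0113). Tnfaip3 was at 8.99 ± 0.09 against 9.50 ± 0.06 with CpG, a difference of -0.50 (SE 0.06, limma adjusted p = 0.000378) at the fold threshold, and its response differed by -0.62 (SE 0.08, adjusted p = 0.00224). The call of Tnfaip3 with CpG was lost without replicate 1 of the Tlr9het CpG libraries, at -0.47, and without replicate 2 of the Tlr997 CpG libraries, at -0.45. Birc2, a ubiquitin ligase that works with TRAF3, was at 7.00 ± 0.01 without CpG and 6.37 ± 0.04 with it in Tlr9het, and at 6.85 ± 0.19 and 6.84 ± 0.16 in Tlr997, and the difference of these responses was 0.62 (SE 0.13, limma adjusted p = 0.0292). That call was lost when any of 7 of the 12 libraries was left out, with adjusted p between 0.0587 and 0.084.

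For each member, the genes with the most similar pattern were taken as those with the smallest root mean square difference in log2 CPM over the 18 libraries, after centring each gene within each arm, among 11012 genes tested in both arms. For Myd88 these were Eif4g2 and Kpna4, at differences of 0.06 and 0.06. For Irak3 they were Pip4k2a and Arhgef6, at 0.16 and 0.17, the largest differences of any member. Such a difference also holds the spread of each gene between libraries of a group. In the CpG arm that spread (residual SD of the fit) was largest for Irak3 among the members, at 0.19, and smallest for Tollip, at 0.05. In the Tlr779 arm it was 0.14 for Irak3 and largest for Peli1, at 0.24. The larger differences of Irak3 therefore do not show that no gene followed its change. Irak2 was most alike to Mef2d and Zfp652 (0.10 and 0.11), Irak1 to Trmt1l and Eif4g3 (0.07 and 0.09), and Irak4 to Dgcr14 and Brd1 (0.09 and 0.10). For Traf6 the nearest were Smarce1 and Ssr1 (0.07 and 0.09), for Traf3 Rnf40 and Usp21 (0.06 and 0.07) and for Peli1 N4bp2l1 and 4933426M11Rik (0.13 and 0.13). Tollip was nearest to Ankrd13c and Rprd1b (0.06 and 0.06), and Tirap to Fbxo25 and Cog7 (0.09 and 0.10). The members themselves were left out of the candidates, so that likeness between members was not measured.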

How the data were processed

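The authors prepared stranded mRNA libraries from bead-purified splenic B cells, trimmed reads with Trim Galore 0.6.5, aligned them to mm10 with STAR 2.6.1a and counted them per gene with featureCounts (Subread 2.0.1). The deposited values were log2 CPM after the authors' quantile normalization and voom, with 1 file per sample. Back-transformed, each library summed to between 991992 and 1004412 CPM. Depth was thus unknown and no counting interval was computed.

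Genes with at least 3 fitted libraries over 0 log2 CPM were tested with limma 3.58.1 (R 4.3.3) with a variance trend. The 12 libraries of the Tlr7-/- arm shared 1 model and the 6 Tlr779 libraries another. The scripts were tested on simulated data. P-values were adjusted over all genes tested, and measure only the spread between these samples. Members, lists and rules were chosen with earlier results of these data known. All members were named, with the called list genes of largest and smallest fold change in each response, every list gene called between genotypes, the 2 nearest genes per member, and Tlr7 and Tlr9. Map3k7, Zc3h12a and the markers were named outside this rule, after their values were seen. Coordinates came from RefSeq (GRCm38.p6) and transcript lengths from GENCODE. The control genotype of the Tlr779 arm was not analysed here.

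Samples of the same replicate number deviated together in Tlr9het (correlation across genes of 0.51, 0.29 and 0.51) and Tlr779 (0.25, 0.49 and 0.33). They did so less in Tlr997 (0.37, 0.083 and 0.025). The main fits, with their p-values, SE and intervals, did not use the numbers, which entered the replicate block described below. No label states the pairing. In the 12 libraries of the first arm 6614 genes were always below -4, and 6306 of them had 1 value per replicate number, which differed between numbers for 822. The cause of this pattern was not tested.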

Additional observations from a re-analysis of the deposited data

Results flagged for a closer look

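The CpG response differed between Tlr997 and Tlr9het, by the interaction term in limma, for 3 genes of the pathway lists and for 0 of the 10 member genes, where 1.54% of all genes were called. The difference was -0.79 for Traf4 and -0.62 for Tnfaip3, whose rises were smaller in Tlr997, and 0.62 for Birc2, which was lower after CpG in Tlr9het and not called in Tlr997. Leaving out each of the 12 libraries in turn kept the calls of Traf4 (between -0.88 and -0.66) and Tnfaip3 (between -0.65 and -0.57), and lost that of Birc2 in 7 instances.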

How the results depend on the processing

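The alternatives were a fold threshold of 1, no filter, log2(CPM + 1), median-shifted libraries, no variance trend, robust moderation, other samples in the fit, library weights, a replicate block and each library left out. With a log2 fold change over 1, 2 members were called in Tlr9het (Irak2, Irak3), beside 4057 of 11494 genes. In Tlr779, 1 member was called (Irak3), beside 2580 of 11082 genes. Leaving out single libraries gave 3 to 5 members called in Tlr9het, the 3 without unstimulated replicate 3, then 3 to 4 in Tlr997, 2 to 3 in Tlr779 and 0 to 0 between genotypes. Over all genes, these fits called 6427 to 6524 in Tlr9het, 6199 to 6484 in Tlr997 and 4765 to 5184 in Tlr779. Between genotypes they called 2 to 4 genes without stimulus, 186 to 250 with CpG and 87 to 292 in the difference of responses. The other alternatives kept each count of members within 1.5 times. With the replicate block, the members called stayed at 5, 3, 2, 0, 0 and 0, beside 6754, 6504, 5383, 2, 335 and 328 of all genes tested. Peli1 between genotypes with CpG had a limma adjusted p of 0.0497 at -0.33 with the block, still under the fold threshold. Myd88 with CL097 in Tlr779 had a limma adjusted p of 0.043 at 0.21 with the block, also under the fold threshold. The block changed no call of a member.

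Changes of direction concerned uncalled values near 0. Library weights gave 0.016 for Irak4 in Tlr9het, 0.033 for Tirap in Tlr997, -0.019 for Irak3 between unstimulated genotypes and 0.068 for Tirap in the difference of responses, and median-shifted libraries gave 0.013 for Irak4 in Tlr779. With single libraries left out, the ranges that crossed 0 were -0.029 to 0.044 (Irak4, Tlr9het), -0.13 to 0.078 (Tirap, Tlr997) and -0.077 to 0.082 (Irak4, Tlr779). Between unstimulated genotypes they were -0.015 to 0.10 (Myd88), -0.19 to 0.016 (Tirap), -0.14 to 0.043 (Irak1), -0.061 to 0.22 (Irak3) and -0.025 to 0.087 (Traf6). With CpG they were -0.090 to 0.054 (Irak2) and -0.016 to 0.090 (Traf3), and in the difference of responses -0.098 to 0.11 (Tirap) and -0.059 to 0.22 (Irak3). The causes were not tested.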
